A study of Homo sapiens with 6 samples.

Results

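The genes of the translation initiation factors were followed in MDA-MB-453, a line grown from a human breast cancer, after knockdown of tRF-1-Ser, a short RNA made from the 3′ trailer of a serine tRNA precursor. Members were all gene symbols of the deposited count table that begin with EIF and a digit from 1 to 6, without the EIF2AK kinases, antisense genes and pseudogenes. Of 101 symbols of this form, 43 were pseudogenes, 4 were kinases and 3 were antisense genes, which left 51 members among 36517 genes. The inhibitors EIF4EBP1, EIF4EBP2 and EIF4EBP3 also end in P and a digit, but GENCODE types them as protein coding, and they were kept. Stable cells carried a lentiviral hairpin against tRF-1-Ser (shtRF, 3 libraries) or the negative control hairpin shNC (control, 3 libraries), and both groups were collected at day 3. Both groups were thus transduced, 1 line was used, and tRF-1-Ser itself, a small RNA, was not measured in these mRNA libraries. The study calls the replicates biological, but the labels do not say whether they were separate cultures, so p-values measure only the spread between these libraries.

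Initiation factors bring the first tRNA and the small ribosomal subunit to the start codon of an mRNA. eIF2 carries the initiator tRNA, eIF2B recharges eIF2 with GTP, and eIF3 is the large scaffold on the small subunit. eIF4E binds the cap, eIF4G links it to eIF3, the helicase eIF4A with eIF4B or eIF4H unwinds the leader, and eIF5 and eIF5B act at the start codon and at subunit joining. Breast cancers are known for raised levels of several of these factors, and the eIF4E-binding proteins restrain cap binding under the control of the kinase mTOR.

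Totals ran from 63541413 to 78917459 counts per library, and the deepest library exceeded the shallowest 1.24-fold. The epithelial and breast line markers EPCAM, KRT8, KRT18, ERBB2 and FOXA1 were present, with group means from 132 CPM for FOXA1 to 2691 CPM for KRT8. KRT8 and KRT18 were higher in shtRF, and ERBB2 was lower. The oestrogen receptor gene ESR1 had 4 to 26 counts per library and was not tested. The 7 fibroblast and leukocyte markers summed to 34.2 to 41.0 CPM in the control libraries and 25.9 to 29.6 CPM in the shtRF libraries, nearly all of it COL1A1 and CD68. COL1A1 was lower (log2 fold change -0.62, adjusted p = 2.88e-07) and CD68 was higher (0.57, adjusted p = 0.00143). Of the exonic bases of CD68, 85.8% are shared with other genes and 81.7% with RP11-186B7.4. Of the other fibroblast and leukocyte markers, DCN, COL3A1, PTPRC and CD3E had at most 5 counts in a library. COL1A2 had 2 to 20 counts per library and was not called. Whether these shifts bear on the members was not tested.

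The initiation factor genes were lower in shtRF more often than higher. Of 49 members tested, 26 were lower, 9 were higher and 14 were not called at an adjusted p under 0.05 by edgeR's quasi-likelihood test with Benjamini-Hochberg adjustment over 19628 genes. Over all tested genes the called share was 39.5% in either direction, 18.9% lower and 20.6% higher, against 71.4%, 53.1% and 18.4% of the tested members. Since most members are abundant, their share was also set beside genes of at least 10 CPM on average, of which 56.4% were called, 24.8% lower and 31.6% higher. At that level 45 members remained, 25 of them lower and 9 higher. The median log2 fold change (shtRF against control) was -0.25 over the tested members and -0.0025 over all tested genes. CPM are counts scaled to a common library total with TMM factors. In such bulk libraries, fewer cells with a transcript and less RNA per cell cannot be told apart.

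The changes were small for single genes. Called members ranged from a log2 fold change of -0.94 (EIF3E) to 0.36 (EIF5B), and 0 of them passed 2-fold, which 5.77% of all tested genes did. The groups did not overlap for 27 members with lower and 8 with higher shtRF values, where 23.8% and 24.9% of all tested genes did so, 48.7% together. Among the 8926 genes of at least 10 CPM, 211 were called past 2-fold, and among the 45 members of that abundance 0 were. Few genes of that abundance passed 2-fold, so the 0 does not set the members apart. At that level the groups did not overlap for 2530 genes with lower and 3133 with higher shtRF values. Of the 45 members there, 25 were lower and 8 higher without overlap. EIF5A2 and EIF4E1B, a second eIF5A gene and a germ-cell eIF4E gene, had at most 2 counts in any library and were not tested. Of the 26 falls, 9 were in the eIF3 complex (64.3% of its 14 genes). The eIF2 group (66.7%), the eIF4A group (80.0%) and the start codon group (80.0%) held 4 each. Of all tested genes 18.9% were lower, and of genes of at least 10 CPM 24.8%. Roles with rises included eIF2B with 2 (40.0%) and eIF3 with 3 (21.4%). Higher were 20.6% of all tested genes and 31.6% of genes of at least 10 CPM.

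**Figure D1:**
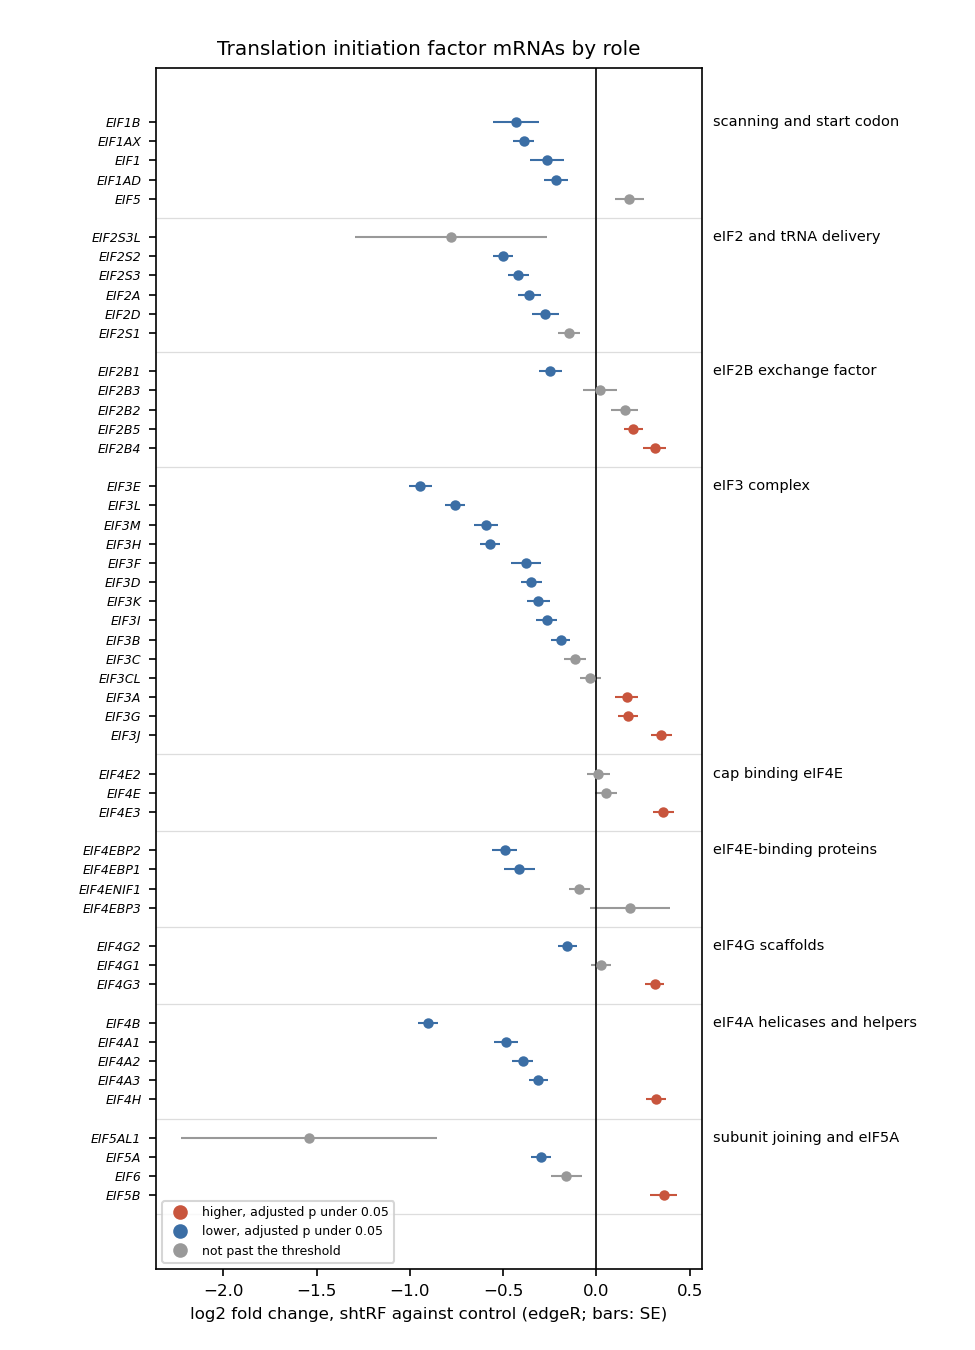
Log2 fold change (shtRF against control, horizontal axis) of each of the 49 tested members, grouped by role, with bars of 1 standard error and colour for the edgeR call. EIF3E (-0.94) and EIF4B (-0.90) lie farthest to the left among called members, and the 9 called rises all lie between 0.16 and 0.36.

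Of the lower members, 6 held a run of pyrimidines at or near the annotated start of the gene. Runs of C and T at an mRNA's first bases define the TOP mRNAs, a class known for ribosomal protein and elongation factor genes. RefSeq windows around the annotated start (GRCh38.p14) were given for 42 of the 51 members. A run of at least 10 bases of C or T only, on the gene's strand, was found in 6 of them (14.3%). It had to touch the 5 bases before the start, the start base or the 10 bases that follow it. The same search gave 6.79% of all 27305 genes with a window and 7.16% of those tested, or 8.56% and 9.94% when every window listed for a gene was searched, with the members' share unchanged. The search and its length limit were chosen after the fold changes had been seen. The 6 members with a run are shown from 10 bases before to 20 bases after the annotated start with the run in capitals, and below them the 3 members with the largest rise, whose windows hold no such run.
EIF4B: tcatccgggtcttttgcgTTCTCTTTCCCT
EIF3M: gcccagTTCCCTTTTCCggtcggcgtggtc
EIF2S3: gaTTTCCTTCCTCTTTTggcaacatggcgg
EIF3F: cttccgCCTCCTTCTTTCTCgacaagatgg
EIF2A: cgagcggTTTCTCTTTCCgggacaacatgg
EIF3D: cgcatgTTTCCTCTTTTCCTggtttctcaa
EIF5B: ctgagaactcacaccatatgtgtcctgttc
EIF4E3: cccgccgtccagttggcggccgcctggccg
EIF3J: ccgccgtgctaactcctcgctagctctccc

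These windows lie at chr12:53006446-53006475 (plus strand) for EIF4B, chr11:32583821-32583850 (plus) for EIF3M, chrX:24054946-24054975 (plus) for EIF2S3, chr11:7987327-7987356 (plus) for EIF3F, chr3:150546777-150546806 (plus) for EIF2A and chr22:36529147-36529176 (minus) for EIF3D. Those of the risen members lie at chr2:99337379-99337408 (plus) for EIF5B, chr3:71754754-71754783 (minus) for EIF4E3 and chr15:44537137-44537166 (plus) for EIF3J. The run was longest in EIF4B, where its 17 bases extend beyond the window shown. It begins there only at base 9, counted from the annotated start with the start base included. The runs of the other members shown in capitals begin before the start. The run measured 15 bases in EIF2S3, 14 in EIF3F and EIF3D, and 11 in EIF3M and EIF2A. All 6 members with a run were lower, with a median log2 fold change of -0.40 and a range from -0.90 to -0.35, where 253 of all 777 tested genes with a run were lower and 148 were higher. The 34 tested members with a shorter run had a median of -0.15, and 15 were lower and 7 higher. Over all tested genes the medians were -0.067 with a run and 0.0077 for 10076 genes with a shorter one. The table used held no window for EIF2S2, EIF2S3L, EIF3A, EIF3CL, EIF3E, EIF3G, EIF3H, EIF3L and EIF4EBP1. Spearman's rho between run length and log2 fold change was -0.323 over 40 members that share the same 6 libraries.

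**Figure D2:**
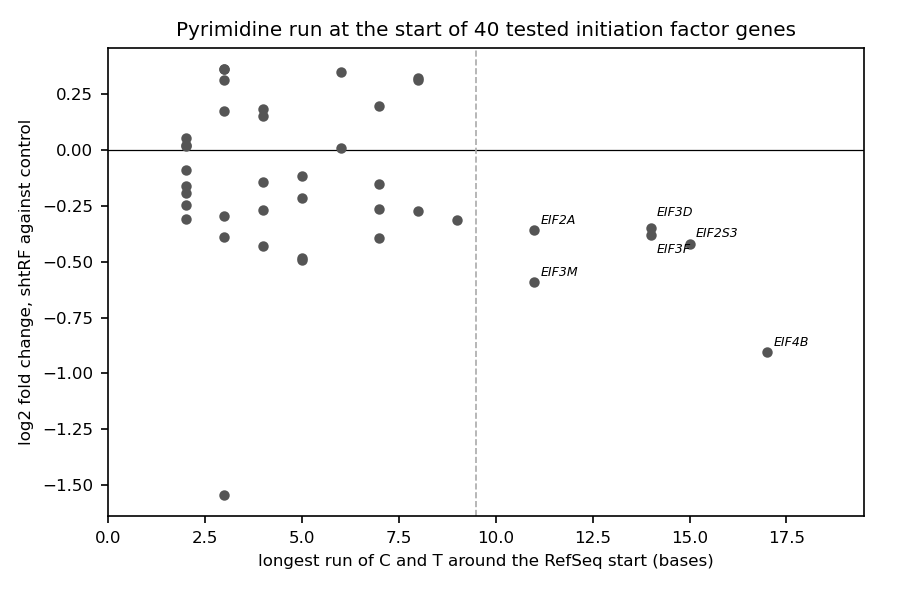
Log2 fold change (vertical axis) against the length in bases of the longest pyrimidine run at or near the annotated start (horizontal axis) for the 40 tested members with a RefSeq window. The 6 members with a run of at least 10 bases all lie between -0.90 and -0.35, while members with shorter runs, left of the dashed line, span both signs.

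eIF3 held the member with the largest called fall. EIF3E, the INT6 subunit (GRCh38 chr8:108201216-108435333), was at 66.1, 70.0 and 63.2 CPM in the control libraries and 36.8, 34.4 and 32.4 CPM in the shtRF libraries. Every shtRF library was far under every control library, and the log2 difference was -0.94 ± 0.062 (SE, adjusted p = 5.56e-11). EIF3L (GRCh38 chr22:37848868-37889407), which binds EIF3E and EIF3K in the eIF3 octamer, was at 109, 116 and 109 CPM in control and 66.9, 66.6 and 64.3 CPM in shtRF, with a shtRF to control log2 ratio of -0.76 ± 0.053 (adjusted p = 1.68e-10). Of its exonic bases, 51.8% are shared with other genes and 41.1% with RP5-1014D13.2 on the same strand, whose log2 fold change was -0.78, so their reads cannot be told apart. EIF3M (GRCh38 chr11:32583798-32606262), whose pyrimidine run is shown above, was at 36.4, 35.9 and 35.7 CPM in control and 25.9, 22.5 and 23.2 CPM in shtRF, or -0.59 ± 0.065 on the log2 scale (adjusted p = 2.01e-07). EIF3H (GRCh38 chr8:116642130-116766925), a gene often gained in breast tumours, was at 92.1, 90.4 and 93.0 CPM in control and 60.4, 64.3 and 60.6 CPM in shtRF, or -0.57 ± 0.053 on the log2 scale (adjusted p = 1.31e-08). In all 4 genes the groups stood well apart.

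The remaining lower eIF3 subunits fell by less. EIF3F, with a long run at its start, was at 15.4, 18.1 and 16.4 CPM in control and 13.1, 12.4 and 12.8 CPM in shtRF (-0.38 ± 0.081 on the log2 scale, adjusted p = 6.42e-04). EIF3D, which can bind the cap of some mRNAs itself, was at 244, 267 and 253 CPM in control and 189.7, 209.6 and 200.2 CPM in shtRF (-0.35 ± 0.056, adjusted p = 2.72e-05). EIF3K, EIF3I and EIF3B had log2 fold changes of -0.31, -0.27 and -0.19, with adjusted p from 2.64e-04 to 0.00454. EIF3K belongs to the octamer, and EIF3I and EIF3B are core subunits with WD repeats. In all 5 genes every shtRF library lay under every control library.

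EIF3J went the other way. This loosely bound subunit (GRCh38 chr15:44537057-44563029) was at 172, 159 and 178 CPM in control and 208, 223 and 217 CPM in shtRF, or 0.35 ± 0.055 on the log2 scale (adjusted p = 2.77e-05), and the groups did not overlap. EIF3G, an RNA-binding core subunit, was at 180.1, 175 and 181 CPM in control and 194, 211 and 198 CPM in shtRF (0.17 ± 0.053, adjusted p = 0.0151). Without control replicate 2 its adjusted p was 0.0788, without shtRF replicate 2 it was 0.0977, and under upper quartile scaling it was 0.0575. EIF3A, the largest subunit and the scaffold of the complex (GRCh38 chr10:119033670-119080823), was at 3675, 3538 and 3855 CPM in control and 3790, 4347 and 4243 CPM in shtRF, so the groups overlapped. Its log2 fold change of 0.16 ± 0.062 had an adjusted p of 0.0424. That call was lost without control replicates 1 (0.134) or 2 (0.198), without shtRF replicates 2 (0.16) or 3 (0.161), and under 7 other settings, among them RLE scaling (0.0509).

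EIF3C and EIF3CL are near-identical copies, so the split of reads between them is uncertain. EIF3C had 392 ± 26.8 CPM (mean ± SD, n = 3) in control and 361 ± 20.0 CPM in shtRF (log2 fold change -0.12, adjusted p = 0.130), and it was called without control replicate 3 (0.0382) and under upper quartile scaling (0.0449). EIF3CL had 707 ± 11.3 CPM in control and 692 ± 48.6 CPM in shtRF (adjusted p = 0.696). Neither copy was called with all libraries and TMM scaling. The subunits thus moved unequally within the same libraries, from -0.94 to 0.35. Summed over the complex, RPKM (reads per kilobase of exonic length at a common library total, without TMM factors) was 1121 ± 17.4 in control and 1104 ± 40.0 in shtRF. EIF3A alone made up 529 and 569.7 of these sums. TMM factors were 1.01 to 1.03 in control and 0.961 to 1.01 in shtRF. RPKM therefore places shtRF lower against control than CPM does.

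**Figure D3:**
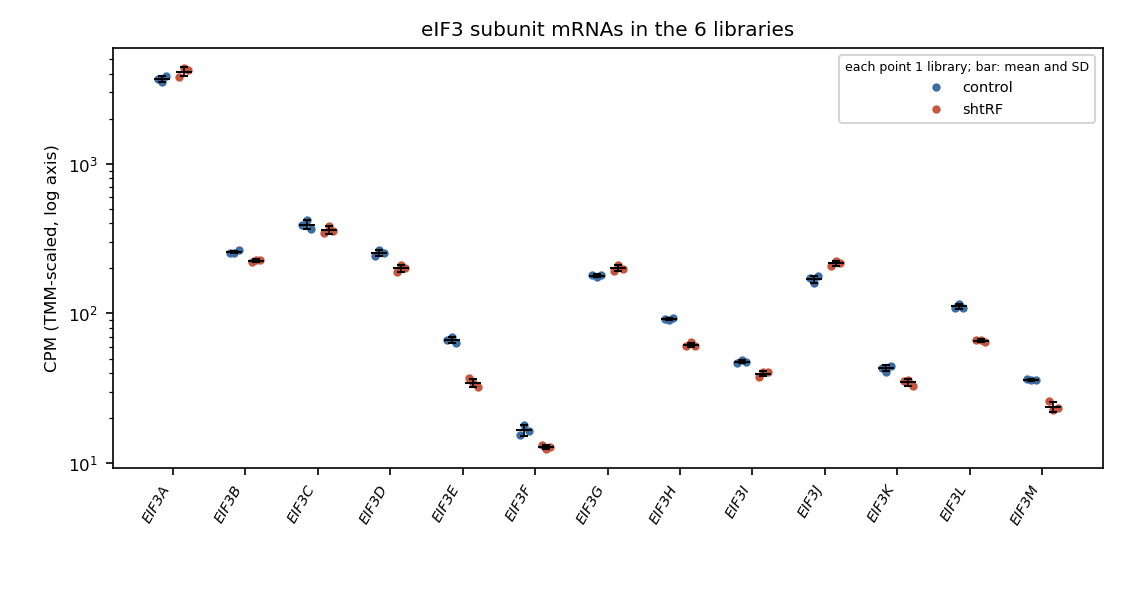
CPM (vertical log axis) of 13 eIF3 subunit genes, all but EIF3CL, with 1 point for each of the 3 control and 3 shtRF libraries and bars for mean and SD. The shtRF points of EIF3E, EIF3L, EIF3M and EIF3H lie under all control points, those of EIF3J lie above, and those of EIF3A overlap the controls.

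Of the 6 genes of eIF2 and tRNA delivery, 4 were lower (66.7%) and 2 were not called. Of all tested genes 18.9% were lower, and of genes of at least 10 CPM 24.8%. EIF2S2, the beta subunit (GRCh38 chr20:34088298-34112332), was at 427, 412 and 383 CPM in control and 295, 289 and 278 CPM in shtRF, with a shtRF to control log2 ratio of -0.50 ± 0.055 (adjusted p = 1.97e-07). EIF2S3, the gamma subunit that holds GTP and the tRNA, was at 139.9, 145 and 128 CPM in control and 101, 106 and 102 CPM in shtRF (-0.42 ± 0.056, adjusted p = 3.03e-06). Both genes had every shtRF library under every control library. EIF2S1, the alpha subunit that the stress kinases phosphorylate, was at 129, 132 and 150.1 CPM in control and 121, 126 and 124 CPM in shtRF. It was not called (log2 fold change -0.14, adjusted p = 0.0559), but it was called without control replicate 1 (0.0266) or control replicate 2 (0.041), and under 7 other settings, among them upper quartile scaling (0.021). Without control replicate 3 its log2 fold change was nearer 0, at -0.072 (adjusted p = 0.330). EIF2S3L, a copy of EIF2S3, had under 0.5 CPM in each library and was not called (adjusted p = 0.250). The summed RPKM of the 6 genes in this role, without TMM factors, was 240.5 ± 10.9 in control and 172 ± 5.79 in shtRF.

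EIF2A and EIF2D, which can bring tRNA to the ribosome without eIF2, were both lower. EIF2A was at 65.6, 68.3 and 61.1 CPM in control and 49.8, 54.9 and 47.3 CPM in shtRF (-0.36 ± 0.062, adjusted p = 7.94e-05). EIF2D had 26.4 ± 2.26 CPM in control and 21.8 ± 0.590 CPM in shtRF (-0.27, adjusted p = 0.00391).

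eIF2B, the exchange factor of 5 subunits, was mixed. EIF2B4, the delta subunit, was at 96.1, 81.7 and 96.6 CPM in control and 113, 111 and 116 CPM in shtRF (0.31 ± 0.061, adjusted p = 3.05e-04). EIF2B5, the catalytic epsilon subunit, was at 254, 244 and 258 CPM in control and 285, 296 and 285 CPM in shtRF (0.20 ± 0.052, adjusted p = 0.00419). Both were higher with no overlap of the groups. EIF2B1, the alpha subunit, was lower, at 35.6 ± 1.92 CPM in control and 29.9 ± 0.607 CPM in shtRF (-0.25, adjusted p = 0.00259), and 14.8% of its exonic bases are shared with DDX55. EIF2B2, the beta subunit, was not called (0.15, adjusted p = 0.112), but it passed without control replicate 3 (0.0258) or shtRF replicate 2 (0.0429). EIF2B3, the gamma subunit, had 13.0 ± 1.54 CPM in control and 13.2 ± 0.809 CPM in shtRF and was not called (adjusted p = 0.900).

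Among the factors of scanning and start codon choice, EIF1AX had the clearest change. This X-linked gene encodes eIF1A, which sits in the decoding site, and it was at 60.7, 63.4 and 65.5 CPM in control and 45.4, 51.0 and 48.3 CPM in shtRF (-0.39 ± 0.058, adjusted p = 1.28e-05). EIF1, which guards against wrong start codons, was at 18.5, 19.8 and 15.2 CPM in control and 14.4, 15.9 and 14.1 CPM in shtRF, and the groups overlapped. Its log2 fold change of -0.27 (adjusted p = 0.0238) was not called without control replicates 1 (0.0741) or 2 (0.143), or without shtRF replicates 1 (0.0749) or 3 (0.112), nor by limma on log2 RPKM (0.0614 and 0.0686 with pseudocounts of 0.1 and 1). EIF1B, its close relative, was at 5.73, 5.53 and 7.08 CPM in control and 5.00, 4.35 and 4.26 CPM in shtRF (-0.43, adjusted p = 0.00809), and it was not called without control replicate 3 (0.0634). EIF1AD, a protein with an eIF1A-like domain, was lower too (-0.22, adjusted p = 0.0101), but not without shtRF replicate 2 (0.063).

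EIF5, which makes eIF2 hydrolyse its GTP, was at 119, 122 and 159 CPM in control and 149, 148 and 155 CPM in shtRF, so control replicate 3 lay above all shtRF libraries and the other two control libraries lay under them. It was not called (0.17 ± 0.078, adjusted p = 0.0820), but it was called without the filter on low counts (0.0205) and in the fit with replicate number as a block (0.0173). Without control replicate 3 the log2 fold change was 0.32 (adjusted p = 5.61e-05), and without control replicates 1 or 2 it was 0.092 or 0.11 and not called.

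In the cap complex, 2 of 4 binding-protein genes and the helicase genes were lower, while of the 3 tested cap-binding genes 1 was higher and 2 were not called. EIF4E, the main cap-binding protein, was at 77.9, 77.8 and 88.9 CPM in control and 84.3, 84.6 and 84.7 CPM in shtRF (0.052 ± 0.058, adjusted p = 0.516). EIF4E2, a relative linked to repression, had 62.8 ± 5.78 CPM in control and 63.2 ± 2.07 CPM in shtRF (adjusted p = 0.925), and 24.2% of its exonic bases are shared with other genes. EIF4E3 (GRCh38 chr3:71675416-71754773), the most distant relative, was at 58.5, 55.9 and 57.3 CPM in control and 70.4, 72.3 and 77.4 CPM in shtRF. It was higher with no overlap of the groups (0.36 ± 0.055, adjusted p = 1.88e-05).

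EIF4EBP1 (GRCh38 chr8:38030341-38060365) and EIF4EBP2 (GRCh38 chr10:70404379-70428618) encode inhibitors that hold eIF4E away from eIF4G until mTOR phosphorylates them. EIF4EBP1 was at 88.9, 93.2 and 66.9 CPM in control and 60.8, 63.7 and 62.5 CPM in shtRF (-0.41 ± 0.083, adjusted p = 3.60e-04). Control replicate 3 lay close to the shtRF libraries, and without it the log2 fold change was -0.55. EIF4EBP2 was at 33.7, 34.5 and 34.2 CPM in control and 25.9, 24.9 and 21.9 CPM in shtRF (-0.49 ± 0.068, adjusted p = 4.40e-06), with the control libraries close together. EIF4EBP3 had 1.26 ± 0.132 CPM in control and 1.44 ± 0.234 CPM in shtRF and was not called (adjusted p = 0.549), and 73.4% of its exonic bases are shared with a readthrough gene. EIF4ENIF1, which carries eIF4E into the nucleus, had 87.8 ± 5.66 CPM in control and 82.4 ± 3.40 CPM in shtRF (adjusted p = 0.228).

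The eIF4G scaffolds differed among themselves. EIF4G1, the main scaffold, was at 1277, 1259 and 1326 CPM in control and 1262, 1341 and 1318 CPM in shtRF, with overlapping groups (0.022 ± 0.054, adjusted p = 0.787). EIF4G3, its close relative, was at 229, 218 and 230.2 CPM in control and 281, 278 and 280.2 CPM in shtRF, and was higher (0.31 ± 0.051, adjusted p = 4.08e-05). EIF4G2, also called DAP5, lacks the eIF4E-binding part and was at 169, 178 and 185 CPM in control and 163, 157 and 158 CPM in shtRF (-0.16, adjusted p = 0.0229). Its call was lost without control replicate 3 (0.0795), shtRF replicate 2 (0.0869) or shtRF replicate 3 (0.0988).

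EIF4B (GRCh38 chr12:53006158-53042209) had the second-largest called fall of all members. This cofactor of the helicase, with the longest pyrimidine run, was at 755, 759 and 691 CPM in control and 383, 394 and 401 CPM in shtRF, with a shtRF to control log2 ratio of -0.90 ± 0.055 (adjusted p = 1.91e-11). The groups lay far apart, and 11.9% of its exonic bases are shared with an antisense gene, RP11-983P16.4, whose log2 fold change was -0.74. EIF4H, the other cofactor of the helicase, was at 591, 559 and 612 CPM in control and 702, 732 and 763 CPM in shtRF, and was higher (0.32 ± 0.056, adjusted p = 8.13e-05). The cofactors therefore moved in opposite directions in the same libraries.

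The helicases were all lower. EIF4A1 was at 154, 176 and 176 CPM in control and 111, 120.0 and 130.2 CPM in shtRF (-0.48 ± 0.064, adjusted p = 2.30e-06). Of its exonic bases 48.6% are shared with other genes, most with RP11-186B7.4 on the same strand, whose log2 fold change was -0.45. EIF4A2, the second initiation helicase, was at 386, 408 and 355 CPM in control and 284, 294 and 296 CPM in shtRF (-0.39 ± 0.057, adjusted p = 7.88e-06), and 17.9% of its exonic bases are shared. EIF4A3 is named after them but serves in the exon junction complex on spliced mRNA. It was at 89.9, 94.2 and 91.3 CPM in control and 73.3, 74.5 and 74.1 CPM in shtRF (-0.31 ± 0.051, adjusted p = 4.08e-05). None of the 3 genes had overlapping groups.

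**Figure D4:**
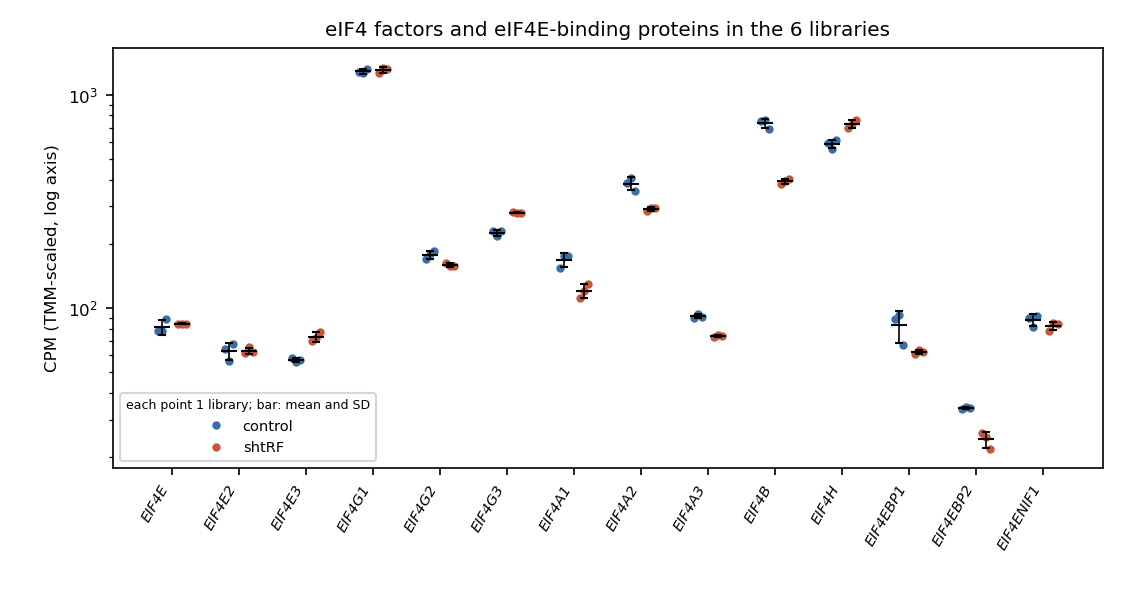
CPM (vertical log axis) of the eIF4 factors and the eIF4E-binding proteins except EIF4EBP3, with 1 point for each of the 3 control and 3 shtRF libraries and bars for mean and SD. EIF4B has the widest gap between the groups, EIF4E3, EIF4G3 and EIF4H lie above their controls in shtRF, and control replicate 3 of EIF4EBP1 lies near the shtRF points.

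EIF5B (GRCh38 chr2:99337353-99401326), the GTPase of subunit joining, had the largest rise of all members. It was at 1034, 1010 and 1099 CPM in control and 1146, 1493 and 1393 CPM in shtRF, with a shtRF to control log2 ratio of 0.36 ± 0.073 (adjusted p = 4.24e-04). The shtRF libraries spread more widely than the control libraries but did not overlap them, and 10.8% of the exonic bases are shared with REV1. EIF5A, named as an initiation factor but now known for helping elongation past proline stretches, was at 83.7, 91.8 and 92.1 CPM in control and 71.8, 72.7 and 73.3 CPM in shtRF (-0.30 ± 0.054, adjusted p = 1.33e-04). EIF5AL1, a near-identical copy of EIF5A, stayed under 0.3 CPM in every library and was not called (adjusted p = 0.0808). EIF6, which keeps large subunits from joining too early, had 16.6 ± 0.905 CPM in control and 14.8 ± 1.35 CPM in shtRF and was not called (-0.16, adjusted p = 0.130), but it was called by limma (0.0377 and 0.0402).

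Ratios between relatives within a library do not depend on library scaling. Of 7 pairs, 3 showed no overlap of the groups, each with p = 0.1 by the exact two-sided permutation test, the smallest that 3 against 3 libraries allow (adjusted p = 0.233 over the 7 pairs). The RPKM ratio of EIF4E3 to EIF4E went from 0.918 to 1.13, a log2 difference of 0.30. The log2 ratio of EIF4G3 to EIF4G1 was higher in shtRF by 0.29, and that of EIF4G2 to EIF4G1 had a difference of -0.18. For EIF4A2 to EIF4A1, EIF1B to EIF1, EIF4EBP2 to EIF4EBP1 and EIF4E2 to EIF4E, log2 differences lay between -0.17 and 0.091, with exact p from 0.6 to 0.7.

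Levels per length spanned a wide range. By mean RPKM over the 6 libraries EIF3A came first at 549, before EIF3CL at 226, EIF4H at 206, EIF4G1 at 157 and EIF5B at 151. Apart from the copies EIF5AL1 (0.0368) and EIF2S3L (0.101), the lowest tested member was EIF3F at 1.57. The summed RPKM of all members was 2415 ± 5.96 in control and 2276 ± 52.1 in shtRF. These sums carry no TMM factors, which would bring the groups closer. Abundant members thus included genes called higher and genes not called, and Spearman's rho between log RPKM and log2 fold change was 0.252 over 49 members measured in the same libraries.

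Of the 6 kinase and phosphatase subunit genes that set eIF2 phosphorylation, 2 were higher and 1 lower, a share between the 39.5% of all tested genes and the 56.4% of genes of at least 10 CPM. EIF2AK2, the double-stranded RNA kinase PKR, was at 180.2, 189 and 182 CPM in control and 111, 98.3 and 104 CPM in shtRF (-0.81 ± 0.056, adjusted p = 1.27e-10). EIF2AK3, the endoplasmic reticulum kinase PERK, was at 58.0, 64.0 and 68.8 CPM in control and 77.0, 84.6 and 81.6 CPM in shtRF (0.35 ± 0.062, adjusted p = 1.04e-04). PPP1R15A (GADD34), which brings a phosphatase to eIF2, was at 77.1, 71.6 and 68.5 CPM in control and 116, 127 and 134 CPM in shtRF (0.80 ± 0.062, adjusted p = 8.67e-10). PKR was thus lower, and PERK and GADD34 were higher, each with no overlap of the groups. EIF2AK1 and EIF2AK4, the haem and amino acid kinases, had log2 fold changes of -0.075 and -0.088 and were not called (adjusted p = 0.283 and 0.221).

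Of 16 signalling genes around mTOR, 3 were higher, 2 lower and 11 not called. The called share was 31.2%, beside 39.5% of all tested genes and 56.4% of genes of at least 10 CPM. DDIT4, an inhibitor of mTOR complex 1, was at 503, 428 and 254 CPM in control and 56.8, 53.6 and 58.1 CPM in shtRF (-2.81 ± 0.15, adjusted p = 1.46e-12), and 41.2% of its exonic bases are shared with RP11-442H21.2. SESN2, another inhibitor, was at 37.8, 36.3 and 16.1 CPM in control and 14.8, 15.8 and 17.6 CPM in shtRF (-0.90 ± 0.18, adjusted p = 4.38e-04). Control replicate 3 was the lowest control library for both genes, and for SESN2 it lay among the shtRF libraries. By limma on log2 RPKM, SESN2 was not called (0.066 and 0.0741). TSC2, a brake on the same complex, was higher (0.62 ± 0.072, adjusted p = 4.50e-07).

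Among poly(A) and elongation partners, PABPC1, PAIP2B, EEF1A1 and EEF1G had log2 fold changes from -0.86 to -0.80. PABPC1, the poly(A)-binding protein that contacts eIF4G, was at 1253, 1225 and 1206 CPM in control and 699, 708 and 688 CPM in shtRF (-0.81 ± 0.052, adjusted p = 4.46e-11). PAIP1, which joins PABPC1 to eIF3, was higher (0.65, adjusted p = 1.24e-09). PAIP2B, an inhibitor of PABPC1, was lower, at mean CPM of 10.0 in control and 5.50 in shtRF (-0.86, adjusted p = 6.65e-06). Its far more abundant relative PAIP2 was higher, at mean CPM of 524 in control and 679 in shtRF (0.38, adjusted p = 1.87e-05). Of the exonic bases of PAIP2, 21.0% are shared with CTB-43P18.1. Of the 13 scanning, recycling and poly(A) genes, 4 were higher and 4 lower. That called share of 61.5% stood beside 39.5% of all tested genes and 56.4% of genes of at least 10 CPM. All 8 genes of the elongation list were lower, against 18.9% of all tested genes and 24.8% of genes of at least 10 CPM. The median log2 fold change of the list was -0.40. That list includes EEF2K (-0.28), which encodes the kinase of the factor EEF2 and is not itself a factor. EEF1A1, which carries tRNA to the elongating ribosome, was at 1610, 1681 and 1616 CPM in control and 939.9, 928 and 893 CPM in shtRF (-0.83 ± 0.054, adjusted p = 4.88e-11). EEF1G (-0.80) and EEF1B2 (-0.51), parts of its exchange factor, fell as well, though 99.9% of the exonic bases of EEF1G are shared with RP11-864I4.1.

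Neither hypusine enzyme was called, and of 4 tested termination genes 1 was higher. Over the 49 tested partners together, 10 were higher (20.4%) and 15 lower (30.6%), with a median log2 fold change of -0.030. Their called share of 51.0% lay between 39.5% of all tested genes and 56.4% of genes of at least 10 CPM. Of the latter genes, 31.6% were higher and 24.8% lower. Cytosolic ribosomal protein genes, the main class of TOP mRNAs, were lower in 76 of 82 tested and higher in 0, with a median of -0.76 and a range from -1.19 to 0.068. A pyrimidine run, searched as for the members, was found at 68.2% of the 66 ribosomal protein genes with a window. The 45 genes with a run had a median of -0.77, close to that of all 82, and 44 of them were lower. The median of the initiation factors, -0.25, lay between those of the ribosomal protein genes and of all tested genes, and whether these lists differ was not tested.

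**Figure D5:**
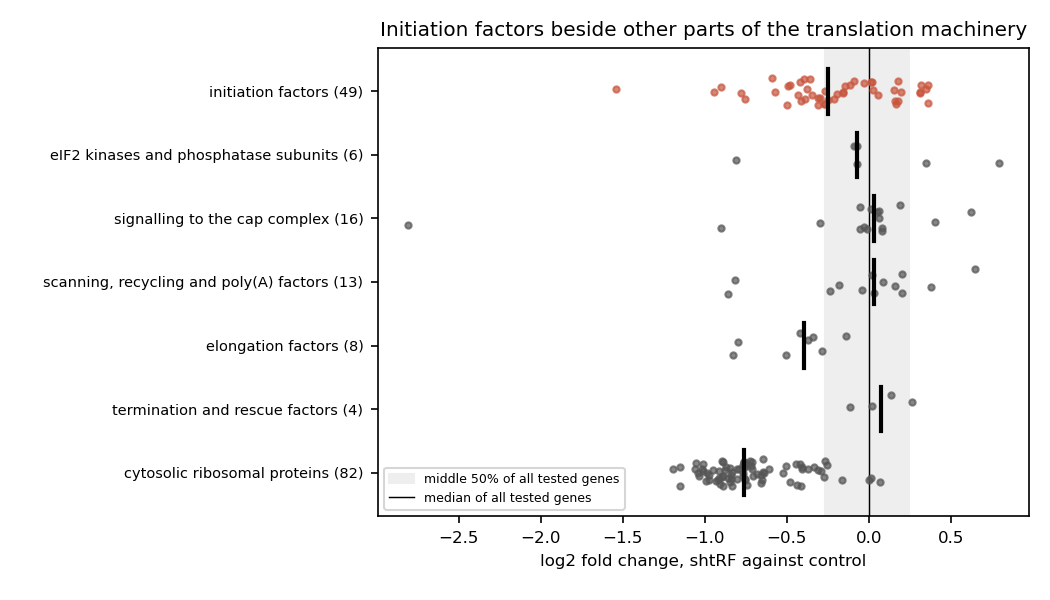
Log2 fold change (shtRF against control, horizontal axis) of each tested gene of the initiation factors, 5 partner lists and the cytosolic ribosomal proteins, with 1 point a gene, a bar at each list's median and shading over the middle 50% of all tested genes. The ribosomal protein genes lie lowest (median -0.76), and the initiation factors spread from -1.54 to 0.36. The genes of the elongation factor list, with the kinase gene EEF2K among them, lie all under 0.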

How the data were processed

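Stranded mRNA libraries made from total RNA were sequenced as read pairs. The authors deposited raw read counts per gene and RPKM per gene. The submitters' processing notes name Trimmomatic 0.36, featureCounts in Subread 1.5.1, edgeR 3.12.1 and GRCh38. The aligner and the strand setting are not given in the sources used here. RPKM were recomputed from the counts, and for the 4991 complete rows of the deposited RPKM used they were equal at a relative tolerance of 1e-06.

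Counts as deposited were tested with edgeR 4.0.16 (R 4.3.3): filterByExpr with a minimum count of 10, TMM factors (0.961 to 1.03), and the quasi-likelihood test (glmQLFTest) of group, the sole term, over 6 libraries. Benjamini-Hochberg adjustment covered all 19628 tested genes, with calls at 0.05. CPM carry the TMM factors, RPKM do not, and errors are SD over 3 libraries unless given as SE. SE was derived from the test, as the size of the log2 fold change divided by the square root of the F statistic. Low counts (1 to 4) were even in 74.2% to 77.1% of cases, so a fragment may have been counted once per mate. The test was tried on simulated data with known changes.

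Every tested member was named, with the eIF2 kinases and those partners with an adjusted p under 0.05 and a log2 fold change of at least 0.5 in size. PAIP2 and EEF2K, under that size, were named as well. Shared exonic bases of at least 10% not given with the gene were 23.6% for EIF2B2, 17.3% for EIF6 and 10.2% for EIF2B3. For the partners EIF2AK3 and EEF1B2 they were 15.1% and 17.4%. The members and lists were chosen with earlier results of these data known. Same-numbered libraries did not deviate together. Alternatives were RLE and upper quartile scaling, other filters, DESeq2 1.42.0, limma 3.58.1 on log2(RPKM + 1) and log2(RPKM + 0.1), halved counts, a replicate block, members with under 10% shared exons, and leaving out each library. A further marker of the line is not reported here.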

Additional observations from a re-analysis of the deposited data

How the results depend on the processing

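Counts of called members stayed within 1.5 times of 26 lower and 9 higher in every alternative run over all members: 24 to 28 lower and 7 to 11 higher. With the replicate block they were 27 and 9 (median -0.25). The replicate numbers did not pair the libraries, since deviations of same-numbered libraries correlated at 0.0592, 0.0178 and 0.0174. The member median of -0.25 moved to -0.29 with upper quartile scaling, -0.23 under a floor of 10 counts per library, -0.30 with limma on log2(RPKM + 0.1) and -0.23 with halved counts, and ranged from -0.24 to -0.22 when 1 library was left out. The median of all tested genes, -0.0025 in the main fit, moved too. It was -0.039 with upper quartile scaling, -0.050 with limma on log2(RPKM + 0.1), and -0.010 under that floor and with halved counts. Over members with under 10% shared exons, 21 were lower and 8 higher of 38 tested, with a median of -0.27. Partners called higher, 10 in the main analysis, were 6 with limma at either pseudocount and 7 to 11 when 1 library was left out, and those called lower were 13 to 15.

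Single genes kept their direction and call in 877 of 941 values, and 46 of 63 genes did so in all alternatives. The 17 values of opposite sign were of genes not called. EIF2B3 was at -0.018 with upper quartile scaling, -0.022 with limma on log2(RPKM + 1) and -0.027 with log2(RPKM + 0.1), and ranged from -0.072 to 0.11 with 1 library left out. EIF4E2 was at -0.027 with upper quartile scaling, -0.0043 under that floor, -0.036 and -0.039 with limma, -0.0026 with halved counts, and from -0.071 to 0.067 with 1 library left out. EIF4G1 was at -0.014 with upper quartile scaling, -0.0308 and -0.0310 with limma, and from -0.0024 to 0.045 with 1 library left out, and EIF3CL ranged from -0.076 to 0.014. EIF2AK1 was called by limma (0.0291 and 0.0319), and EIF5 with the replicate block (0.0173) and without the filter (0.0205). With 1 library left out, the log2 ratio difference ranged from -0.31 to 0.057 for EIF1B to EIF1, -0.18 to 0.051 for EIF4EBP2 to EIF4EBP1 and -0.086 to 0.011 for EIF4E2 to EIF4E. The cause of these moves was not tested. EIF5A2 to EIF5A was not computed, since EIF5A2 had at most 2 counts in a library.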

Other observations

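Of the 43 pseudogene symbols set aside, 8 had enough counts to be tested. Copies of EIF4B were lower like the gene itself: EIF4BP6 had mean CPM of 4.47 in control and 1.91 in shtRF (log2 fold change -1.23, adjusted p = 5.38e-07), EIF4BP3 had -1.03 (adjusted p = 0.0119) and EIF4BP7 -0.80 (adjusted p = 0.0408). Reads of a gene and its processed copies may be assigned to either, and their part in these values was not tested. The copies EIF2S2P4, EIF3EP1 and EIF4HP1 had log2 fold changes of -0.63, -0.64 and 0.11 and were not called (adjusted p from 0.0601 to 0.687). The antisense genes EIF3J-AS1 and EIF1B-AS1 had log2 fold changes of -0.077 and -0.029 (adjusted p = 0.625 and 0.959).

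In RefSeq windows from 250 bases before to 50 bases after the start, the E-box CACGTG (both strands) was present at 11 of 42 members, or 26.2%, against 7.43% of all windows and 9.99% of those of tested genes. Of these, EIF1B, EIF3F, EIF3K, EIF4A3 and EIF4B were lower, EIF4H was higher, EIF2B3, EIF4E, EIF4EBP3 and EIF4G1 were not called, and EIF5A2 was not tested. The ETS motif CCGGAAG was present at 10 of 42 (23.8%), against 10.7% of all windows and 18.4% of those of tested genes. The amino acid response core TGATGNAA was present at 0 of 42, against 3.67% and 1.76%. Exonic length and log2 fold change had a Spearman's rho of 0.197 over 49 tested members and 0.0391 over all tested genes.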
